A study of Homo sapiens with 6 samples.

Results

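The genes described here are 9 genes of the glutamine and transaminase pathway of pancreatic cancer, chosen by name from the 58825 genes of the table: SLC1A5, GLUL, GLUD1, GOT1, GOT2, GPT2, MDH1, MDH2 and ME1. Each name had 1 identifier in the table. The cells were PANC-1, an established line from a human pancreatic tumour, and the treatment was maslinic acid (MA), a plant triterpenoid. RNA-seq was performed on 6 samples of this line, of which 3 received MA at 40 μM over 24 h (named MA PANC-1 1, 2 and 3) and the other 3 no MA (named PANC-1 1, 2 and 3). All samples come from the same line grown in the same serum-containing medium, and the study calls them biological replicates of 0 and 40 μM MA. The labels name no vehicle for the untreated samples, while the study's account of cell treatment in general gives DMSO as the alternative to MA. Per gene, the authors deposited FPKM, a level corrected for gene length and library size, and an estimated count. The total of all estimated counts per treated sample was 56978375, 63984133 and 58181114, and per untreated sample 70275355, 65607669 and 59422939, each in the order of the sample numbers, which is kept throughout.

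Glutamine enters many cancer cells through SLC1A5 and is turned into glutamate, and GLUL runs the opposite reaction. The nitrogen of glutamate is then either released by GLUD1 or passed to a keto acid by a transaminase. In pancreatic cancer cells the transaminase route is known for a relay in which GOT2 makes aspartate in the mitochondrion, GOT1 turns it into oxaloacetate in the cytosol, MDH1 reduces this to malate, and ME1 converts malate to pyruvate while making NADPH.

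The labelled cell type was compared with marker genes. The epithelial keratins KRT8 and KRT18 stood at 141 to 225 FPKM and 278 to 338 FPKM over the 6 samples, the mesenchymal gene VIM at 521 to 754 FPKM and the ductal factor SOX9 at 12.6 to 18.2 FPKM. The mesenchymal genes CDH2 and ZEB1 were at 12.2 to 17.3 FPKM and 0.610 to 1.42 FPKM, the ductal keratin KRT7 at 1.40 to 2.19 FPKM and the epithelial cadherin CDH1 at 0.778 to 1.28 FPKM. The ductal keratin KRT19 and the epithelial adhesion gene EPCAM were near 0, at most 0.109 and 0.132 FPKM. The acinar genes PRSS1, CPA1 and AMY2A and the endocrine genes INS, GCG and SST were listed without reads in all 6 samples, as was the T cell gene CD3E. The other acinar genes CTRB1 and CELA3A were at most 0.0866 and 0.0058 FPKM, and the endocrine CHGA at most 0.0163 FPKM. Of the fibroblast genes, COL1A1 was at 2.64 to 5.96 FPKM, LUM at 0.351 to 0.616 FPKM and DCN at most 0.0107 FPKM. PTPRC, which marks leukocytes, was at most 0.0120 FPKM and the endothelial PECAM1, VWF and CDH5 at most 0.0275, 0.0148 and 0.0162 FPKM. CD68, a lysosomal gene on the immune list, was at 25.6 to 40.9 FPKM.

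The treated libraries were spread widely. On the first principal component of log2 counts scaled to library size, which held 26.4% of the variance, MA PANC-1 2 lay at 73.6 and MA PANC-1 1 at 29.5. MA PANC-1 3 lay at −16.2, close to the PANC-1 samples at −44.9 to −18.1. The fold changes of the 8 members tested and the differences in ratio are also given without MA PANC-1 2, the sample farthest from the untreated ones on this component.

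MA PANC-1 and PANC-1 cells were compared by edgeR's quasi-likelihood test over the 17774 genes whose FPKM averaged 0.1 or more, with p-values adjusted by Benjamini-Hochberg over all of them. Of the 9 genes, 8 passed this filter and GLUL did not. The 3 transaminases GPT2, GOT1 and GOT2 were higher after MA with an unadjusted p under 0.05, whereas GLUD1, MDH1, MDH2, ME1 and SLC1A5 did not reach that threshold. None of the 8 kept an adjusted p under 0.05, a threshold that 0.0394% of all genes tested passed. The 3 of 8 genes stand beside 11.2% of all genes tested with an unadjusted p under 0.05 in either direction, and 5.37% that were also higher after MA. No member was lower with such a p, against 5.86% of all genes tested. In this edgeR fit GPT2 alone was a differentially expressed gene (DEG) by the study's thresholds. These are 2-fold up or down together with an unadjusted p under 0.05. The study's own list of DEGs was not used for this call. GPT2 stayed under a 2-fold change in limma and in the fit with a replicate block. DEGs made up 1.92% of all genes tested, and those higher after MA 0.675%. The median log2 fold change of the 8 genes was 0.28, and that of all genes tested was −0.0017. Because the 9 genes were proposed with earlier results of these data known, these counts are descriptions. In RNA from whole cultures a different level of an mRNA per cell and a different number of cells that carry it cannot be told apart.

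**Figure D1:**
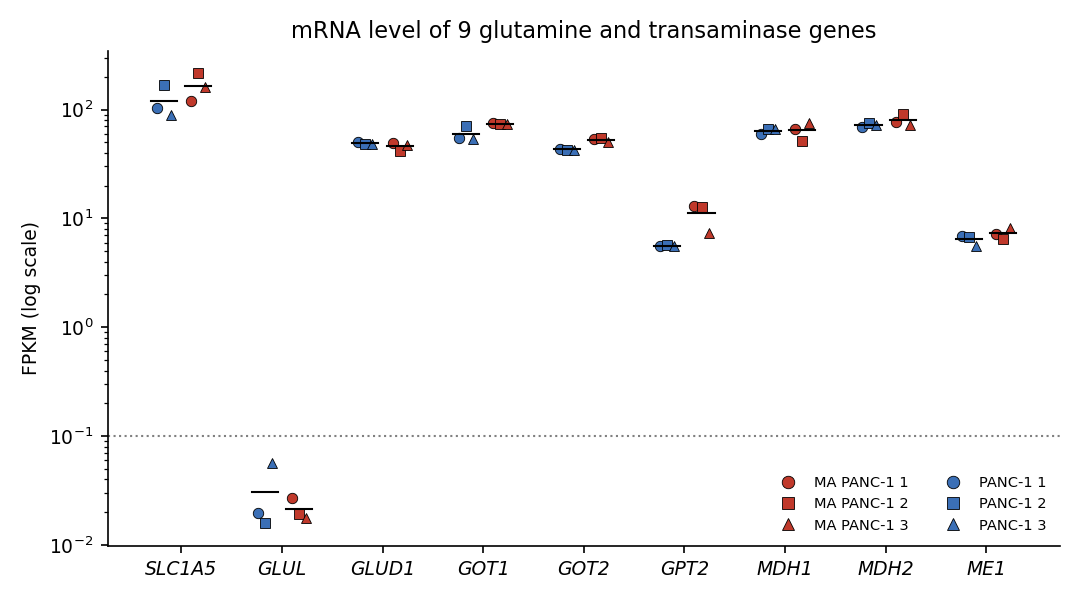
FPKM (log scale) of the 9 genes in each sample, with blue points for PANC-1, red points for MA PANC-1 and a black bar for each mean of 3 samples. GLUL lies under the dotted filter line at 0.1 FPKM in all 6 samples, while the other genes lie between 5.56 and 216 FPKM.

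In PANC-1 cells the order of mean levels per length was SLC1A5, MDH2, MDH1, GOT1, GLUD1, GOT2, ME1, GPT2 and GLUL. SLC1A5, at 121 ± 42.8 FPKM (SD, n = 3), lay above 98.5% of all genes tested. MDH1 and GOT1 had overlapping sample ranges, as did ME1 and GPT2, so neither pair can be ordered. All other neighbours in this order had ranges that stood apart. In MA PANC-1 cells GOT1 was listed before MDH1, GOT2 before GLUD1, and GPT2 before ME1. There the ranges of MDH2 and GOT1, GOT1 and MDH1, MDH1 and GOT2, and GPT2 and ME1 overlapped.

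**Figure D2:**
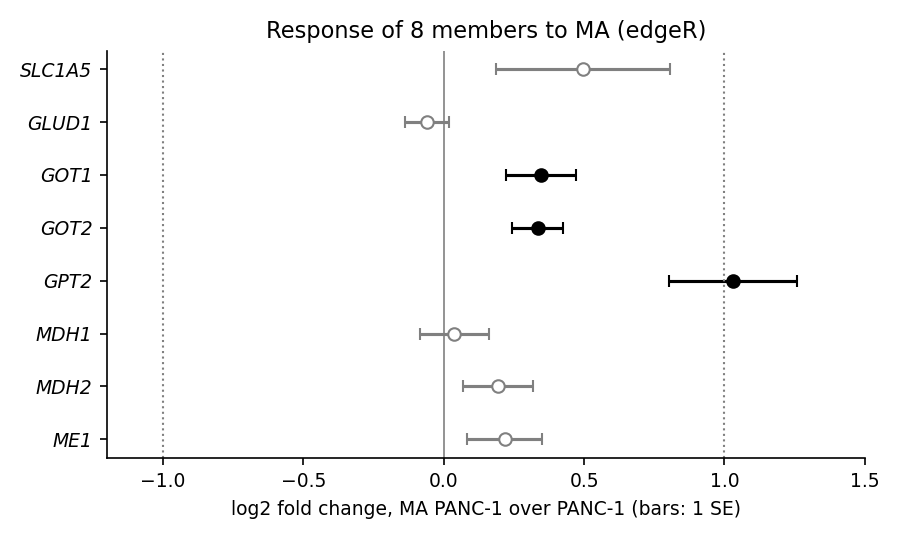
Log2 fold change of MA PANC-1 over PANC-1 from edgeR for the 8 genes tested, with bars of 1 standard error. Filled points have an unadjusted p under 0.05, and the dotted lines mark a 2-fold change, which only GPT2 reached, at a log2 fold change of 1.03.

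GPT2, the mitochondrial alanine aminotransferase that passes nitrogen from glutamate to pyruvate, had the largest log2 fold change of the 8 genes in edgeR. Its gene (ENSG00000166123) spans 46884362 to 46931289 on the plus strand of chromosome 16 (GRCh38). The levels were 13.1, 12.8 and 7.39 FPKM in MA PANC-1 1, 2 and 3 and 5.58, 5.68 and 5.56 FPKM in PANC-1 1, 2 and 3. The groups did not overlap, but MA PANC-1 3 lay nearer to the PANC-1 samples than to the other treated samples. The estimated counts were 5651, 6249 and 3267 after MA and 2981, 2833 and 2503 without it. The log2 fold change was 1.03 (standard error 0.23, unadjusted p = 0.00260, adjusted p = 0.364 from edgeR). Leaving out MA PANC-1 2 gave 0.87 and leaving out MA PANC-1 1 gave 0.92, both under a 2-fold change. Leaving out MA PANC-1 3 gave 1.27, with an adjusted p of 0.0249 from edgeR, and DESeq2 on all 6 samples gave an adjusted p of 0.00212. The log2 fold change was 0.98 with the replicate number as a block and 0.93 and 0.84 in limma with pseudocounts of 0.1 and 1, so the DEG call was lost under these alternatives.

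GOT2, the aspartate aminotransferase of the mitochondrion, had the second smallest p of the 8 genes. Its gene (ENSG00000125166) lies on the minus strand of chromosome 16, from 58707131 to 58734342. It was measured at 53.7, 54.8 and 50.0 FPKM after MA and at 43.8, 42.5 and 42.6 FPKM without it. All treated samples lay above all untreated ones, and the untreated samples had an SD of 0.724 FPKM (n = 3). The log2 fold change was 0.34 (standard error 0.09, unadjusted p = 0.00732, adjusted p = 0.388 from edgeR), and 0.27 without MA PANC-1 2.

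GOT1, the cytosolic aspartate aminotransferase, is encoded on the minus strand of chromosome 10, from 99396870 to 99430624 (ENSG00000120053). Its levels were 75.7, 73.0 and 73.1 FPKM in MA PANC-1 1, 2 and 3 and 55.4, 70.0 and 53.3 FPKM in PANC-1 1, 2 and 3. The groups did not overlap, and PANC-1 2 came close to the treated samples. Its log2 fold change was 0.35 (standard error 0.12, unadjusted p = 0.0259, adjusted p = 0.429 from edgeR). Leaving out MA PANC-1 2 gave 0.32 and an unadjusted p of 0.0581, so the call did not hold without that library. The unadjusted p was also above 0.05 without MA PANC-1 1 (0.0627), PANC-1 1 (0.0932) or PANC-1 3 (0.0928), and it was 0.00298 without PANC-1 2. The FPKM groups of these 3 transaminases did not overlap, as in 19.9% of all genes tested in either direction and 8.79% with the treated samples higher. By an exact permutation test, two-sided, p was 0.1 for each, the smallest that 3 samples against 3 allow.

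GLUD1, the mitochondrial dehydrogenase that releases ammonia from glutamate, is the alternative to the transaminases. It is encoded from 87050202 to 87094843 on the minus strand of chromosome 10 (ENSG00000148672). Its treated samples stood at 49.0, 42.0 and 46.9 FPKM and its untreated samples at 50.3, 48.4 and 48.6 FPKM. The ranges overlapped, and the lowest sample was MA PANC-1 2. The log2 fold change was −0.06 (standard error 0.08, adjusted p = 0.782 from edgeR), with a 95% interval (normal approximation) from −0.21 to 0.09, and it was −0.04 without MA PANC-1 2. SHLD2 overlaps GLUD1 on the other strand, with 1302 to 2357 counts per sample against 12142 to 15957 for GLUD1.

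GLUL, the glutamine synthetase, was at the edge of detection in both groups. Its gene (ENSG00000135821, chromosome 1, 182381704 to 182392206, minus strand) had estimated counts of 17, 14 and 12 in MA PANC-1 1, 2 and 3 and of 15, 12 and 38 in PANC-1 1, 2 and 3. These correspond to 0.0267, 0.0192 and 0.0178 FPKM after MA and 0.0195, 0.0158 and 0.0569 FPKM without it. The groups overlapped and PANC-1 3 was the highest sample. With no filter on low values the log2 fold change was −0.48 (standard error 0.72, adjusted p = 0.819 from edgeR), and a difference was not detectable at this depth. The table lists the same 13 transcripts for GLUL as GENCODE release 29, no gene overlaps it, and its 4 named pseudogenes had no count in any sample. The FPKM of GLUL was at most 0.00117 times that of GLUD1 in any of the 6 samples.

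SLC1A5, the plasma membrane transporter for glutamine and other neutral amino acids, was the most abundant of the 9 mRNAs per length and had the largest SD of FPKM in either group. It is encoded on chromosome 19 from 46774883 to 46788594, minus strand (ENSG00000105281). The levels were 119, 216 and 160 FPKM in MA PANC-1 1, 2 and 3 and 104, 169 and 88.8 FPKM in PANC-1 1, 2 and 3. The ranges overlapped, since PANC-1 2 was above MA PANC-1 1 and MA PANC-1 3, and the highest sample of either group carried the number 2. Its log2 fold change was 0.50 (standard error 0.31, unadjusted p = 0.152, adjusted p = 0.549 from edgeR). Leaving out MA PANC-1 2 gave 0.21, and leaving out PANC-1 2 gave 0.83 with an unadjusted p of 0.0238. With the replicate number as a block it was 0.50 with an unadjusted p of 0.0142 (adjusted p = 0.389 from edgeR).

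**Figure D3:**
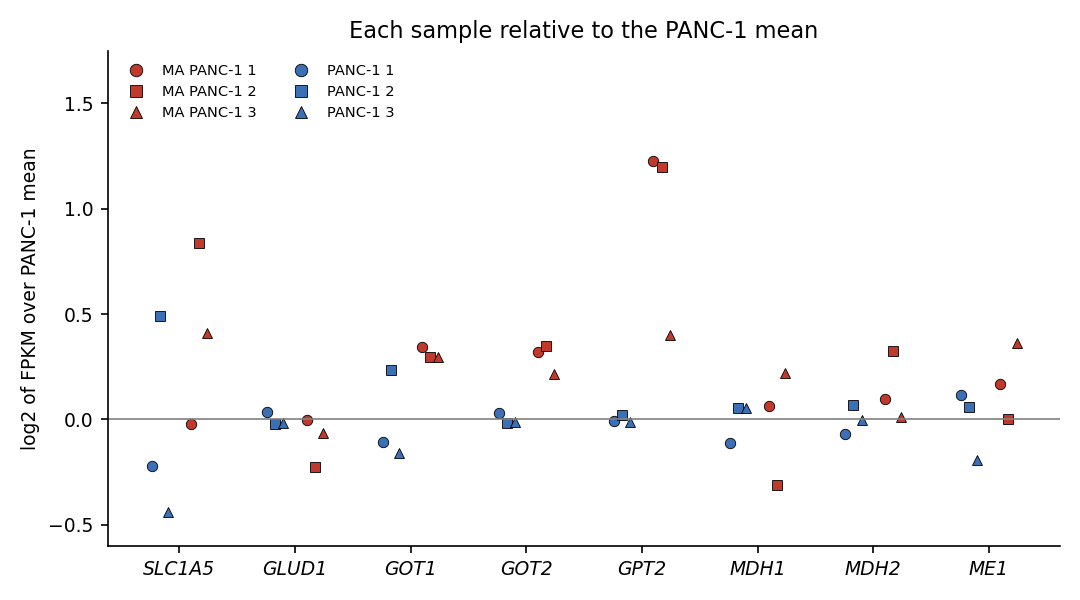
FPKM of each sample over the mean of the PANC-1 samples, on a log2 scale, for the 8 genes tested, with the marker shape giving the sample number. The 3 red points of GOT1, GOT2 and GPT2 lie above the blue ones, and in SLC1A5 both squares (number 2) lie highest in their group, at 0.49 and 0.84.

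MDH1 and MDH2 interconvert malate and oxaloacetate in the cytosol and in the mitochondrion. MDH1 (ENSG00000014641, chromosome 2, 63588609 to 63607194, plus strand) was at 67.0, 51.7 and 74.6 FPKM after MA and at 59.3, 66.5 and 66.4 FPKM without it. The treated samples held both the lowest and the highest value. Its log2 fold change was 0.04 (standard error 0.12, adjusted p = 0.927 from edgeR), with a 95% interval (normal approximation) from −0.20 to 0.28. Leaving out MA PANC-1 2 gave 0.14 (unadjusted p = 0.145 from edgeR), and the value was below 0 in limma and without MA PANC-1 3 or PANC-1 1. MDH2 (ENSG00000146701, chromosome 7, 76048051 to 76067506, plus strand) was at 77.0, 90.2 and 72.5 FPKM after MA and at 68.6, 75.5 and 71.8 FPKM without it. The groups overlapped and MA PANC-1 2 was the highest sample. The log2 fold change of MDH2 was 0.19 (standard error 0.13, adjusted p = 0.568 from edgeR), or 0.05 without MA PANC-1 2. That library was thus the lowest of the 6 for MDH1 and the highest for MDH2.

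ME1, the cytosolic malic enzyme that makes NADPH, is encoded by 1 transcript over 220650 bases of chromosome 6, from 83210402 to 83431051 on the minus strand (ENSG00000065833). Its treated samples stood at 7.19, 6.43 and 8.23 FPKM and its untreated samples at 6.95, 6.68 and 5.61 FPKM. The ranges overlapped, with MA PANC-1 2 below 2 of the untreated samples. The log2 fold change was 0.22 (standard error 0.13, adjusted p = 0.545 from edgeR), 0.26 without MA PANC-1 2 and 0.14 without MA PANC-1 3, and leaving out PANC-1 3 gave 0.13.

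Since FPKM is a level per length, the cytosolic and mitochondrial enzymes were also compared within each sample. The GOT1 to GOT2 ratio of FPKM was 1.41, 1.33 and 1.46 in MA PANC-1 1, 2 and 3 and 1.26, 1.65 and 1.25 in PANC-1 1, 2 and 3. All 6 samples thus held more GOT1 than GOT2 mRNA per length, and the difference in mean log2 ratio was 0.03 (exact two-sided permutation test, p = 0.9, 0.9 after Benjamini-Hochberg over 4 ratios), or 0.06 without MA PANC-1 2. The MDH1 to MDH2 ratio was 0.870, 0.573 and 1.03 after MA and 0.864, 0.881 and 0.925 without it, a difference in mean log2 ratio of −0.15 (exact permutation p = 0.8, adjusted p = 0.9), and of 0.09 without MA PANC-1 2. ME2 is the mitochondrial malic enzyme that uses mainly NAD. ME3, the other mitochondrial malic enzyme, was at 7.24, 7.61 and 8.37 FPKM after MA and at 7.95, 9.12 and 9.75 FPKM without it. ME3 lay above ME1 in every sample, and the ratio of ME1 to ME3 was not tested. The ME1 to ME2 ratio was 1.54, 1.71 and 1.70 after MA and 1.42, 1.35 and 1.19 without it. These 2 groups did not overlap, and the difference in mean log2 ratio was 0.33 (exact permutation p = 0.1, the smallest possible, adjusted p = 0.4), or 0.30 without MA PANC-1 2. The ratio of GLUL to GLUD1 differed by −0.22 in mean log2 ratio (exact permutation p = 0.9, adjusted p = 0.9), also −0.22 without MA PANC-1 2, while leaving out PANC-1 3 gave 0.36.

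**Figure D4:**
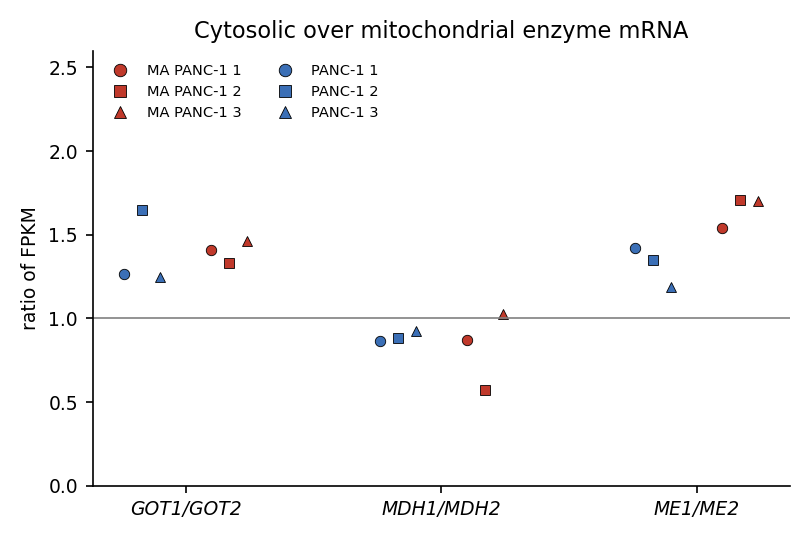
Ratio of FPKM between cytosolic and mitochondrial enzymes in each sample, blue for PANC-1 and red for MA PANC-1, with a grey line at a ratio of 1. GOT1/GOT2 lies between 1.25 and 1.65, MDH1/MDH2 drops to 0.573 in MA PANC-1 2, and the ME1/ME2 groups do not overlap. The mitochondrial malic enzyme ME3 is not part of these ratios.

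The genes around the 9 were taken from 10 lists of 107 genes, of which 95 were tested. Of these 95, 11 were higher and 8 lower after MA with an unadjusted p under 0.05, 20.0% against 11.2% of all genes tested, and none passed the adjusted threshold or was a DEG in edgeR. The number with an unadjusted p under 0.05 was 21 without MA PANC-1 2 (1834 of all genes tested, against 1995 with all samples), 29 without MA PANC-1 3 (3213 of all genes) and 12 without PANC-1 1 (1178 of all genes). Under DESeq2 the adjusted p was under 0.05 for 4 genes, GSS, DDIT3, HIF1A and WWTR1 (HIF1A named after its value was seen), beside 1.73% of the 14964 genes that DESeq2 gave an adjusted p.

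**Figure D5:**
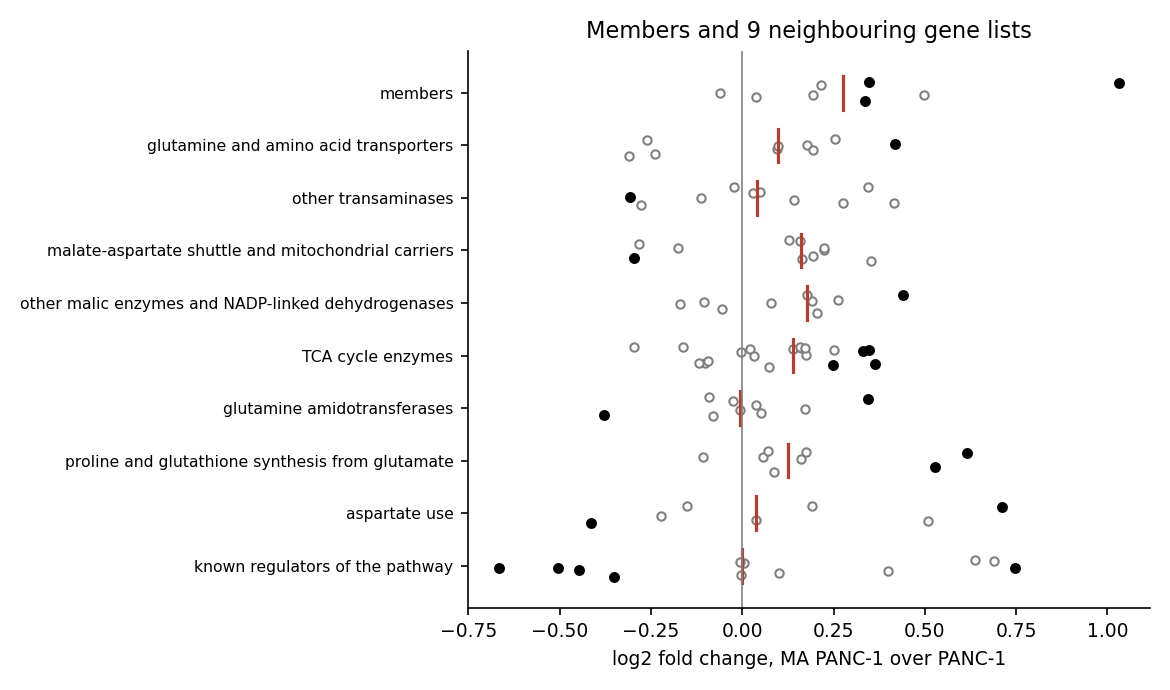
Log2 fold change of MA PANC-1 over PANC-1 from edgeR for the 8 tested members (top) and the tested genes of the 9 lists with 3 or more tested genes. Filled points have an unadjusted p under 0.05 and red bars are list medians, which are 0.28 for the members and 0.14 for the TCA cycle enzymes.

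Among 9 tested transporters of glutamine and other amino acids, SLC1A4, a close relative of SLC1A5, was higher after MA, at 35.6, 37.5 and 33.0 FPKM against 25.0, 30.6 and 25.8 FPKM (log2 fold change 0.42, unadjusted p = 0.0102, adjusted p = 0.388 from edgeR). SLC38A1, a sodium-coupled glutamine importer, had a log2 fold change of −0.31 (unadjusted p = 0.0598, adjusted p = 0.462). GLS2, the liver-type glutaminase, was at most 0.113 FPKM and was not tested. GLUD2, the paralog of GLUD1, was at 0.174 to 0.345 FPKM against 42.0 to 50.3 FPKM for GLUD1.

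Of 10 other transaminases tested, GFPT2 alone had an unadjusted p under 0.05, a share of 10.0% against 11.2% of all genes tested. GFPT2, which uses glutamine to make hexosamines, was lower after MA, with a log2 fold change of −0.31 (unadjusted p = 0.0109, adjusted p = 0.388 from edgeR). BCAT1, the cytosolic branched-chain aminotransferase, had a log2 fold change of −0.28 (unadjusted p = 0.0926, adjusted p = 0.493). GPT, the cytosolic relative of GPT2, was at most 0.0663 FPKM. PSAT1, the phosphoserine aminotransferase, was the most abundant of these per length, at 185 to 242 FPKM, named after its values were seen, with a log2 fold change of 0.14 (adjusted p = 0.599).

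The carriers of the malate-aspartate shuttle link the GOT and MDH pairs across the inner membrane. SLC25A12, an aspartate and glutamate carrier, was at 5.97 to 6.05 FPKM after MA and at 6.50, 7.96 and 8.25 FPKM without it, and its log2 fold change was −0.30 (unadjusted p = 0.0438, adjusted p = 0.440 from edgeR). The groups did not overlap. Its paralog SLC25A13 had a log2 fold change of 0.13 (adjusted p = 0.667), and SLC25A11, the oxoglutarate and malate carrier, 0.19 (adjusted p = 0.688). The pyruvate carrier subunit MPC2 had 0.35 (adjusted p = 0.508), the glutamate carrier SLC25A22 0.22 (adjusted p = 0.875) and UCP2, an exporter of aspartate and other C4 metabolites, −0.18 (adjusted p = 0.748). SLC25A22 ranged from 6.33 to 19.1 FPKM, and MA PANC-1 1 and PANC-1 1 were the lowest samples of their groups.

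Among the other enzymes that turn over malate or NADP, IDH2 had a log2 fold change of 0.26 (adjusted p = 0.485 from edgeR), ME2 −0.10 (adjusted p = 0.697) and ME3 −0.17 (adjusted p = 0.599). Of 19 TCA cycle enzymes, 4 were higher with an unadjusted p under 0.05 and none was lower, against 5.37% and 5.86% of all genes tested. The cytosolic aconitase ACO1 had a log2 fold change of 0.35 (adjusted p = 0.375 from edgeR) and IDH3B, a subunit of the NAD-linked isocitrate dehydrogenase, 0.33 (adjusted p = 0.414).

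Among enzymes that use glutamine or its products, GSS, the glutathione synthetase, was at 19.6, 18.6 and 17.2 FPKM after MA and at 12.9, 14.0 and 12.6 FPKM without it. The groups did not overlap, and the log2 fold change was 0.53 (standard error 0.10, unadjusted p = 0.00103, adjusted p = 0.254 from edgeR, 0.00871 from DESeq2). ALDH4A1, which returns proline carbon to glutamate, was higher by 0.62 on the log2 scale (unadjusted p = 0.0252, adjusted p = 0.429). The purine enzyme PPAT was lower, with a log2 fold change of −0.38 (unadjusted p = 0.0384, adjusted p = 0.435), and NADSYN1 was higher by 0.34 (unadjusted p = 0.0388, adjusted p = 0.435). Of the genes that use aspartate, ADSS2 of the purine pathway was lower, with a log2 fold change of −0.41 (unadjusted p = 0.00947, adjusted p = 0.388), and the argininosuccinate synthase ASS1 was higher by 0.71 (unadjusted p = 0.0296, adjusted p = 0.431).

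Of 12 known regulators, 1 was higher and 4 were lower with an unadjusted p under 0.05, against 5.37% and 5.86% of all genes tested. DDIT3, a stress-induced transcription factor, was at 57.0, 35.4 and 45.8 FPKM after MA and at 30.9, 24.0 and 29.1 FPKM without it (log2 fold change 0.75, unadjusted p = 0.00326, adjusted p = 0.375 from edgeR). WWTR1, a coactivator of TEAD factors, was lower, with a log2 fold change of −0.50 (unadjusted p = 0.000841, adjusted p = 0.222 from edgeR). MYC was at 1.06, 5.45 and 8.28 FPKM after MA and at 8.26, 0.820 and 0.318 FPKM without it, so both groups held high and low samples (log2 fold change 0.69, standard error 1.16, adjusted p = 0.839 from edgeR). Without PANC-1 1 the log2 fold change of MYC was 3.11 (unadjusted p = 0.0124, adjusted p = 0.729 from edgeR), which made it the 1 DEG of the lists.

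Short stretches before the gene starts were read for letters that 3 classes of regulators are known to bind, since ATF4, NFE2L2 (also called NRF2) and MYC are factors known to act on genes of this pathway. The RefSeq table (GRCh38.p14) gave windows from 250 bases before to 50 bases after a start for 8 of the 9 genes, 12 windows in all, and none for GPT2. The ATF4 and C/EBP composite element was searched as TGATGNAA, the E-box as CACGTG and the core of the antioxidant response element as TGACNNNGC, each on both strands. They were chosen with the values of these genes known, and were found in 3.62%, 7.26% and 13.3% of the 35116 windows of all genes and in 2, 1 and 3 of the 12 windows, and no match overlapped another. The stretches are shown 5′ to 3′ on the gene's strand with the matched letters in capitals and 10 bases on each side.
GOT1, ATF4 and C/EBP composite element on the opposite strand, chr10:99430805-99430832: attgcattggTTGCATCAttctcggcag
SLC1A5, ATF4 and C/EBP composite element, chr19:46784894-46784921: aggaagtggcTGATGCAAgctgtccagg
SLC1A5, E-box, chr19:46787328-46787353: cgggagtggtCACGTGgacaggacgg
ME1, antioxidant response element core, chr6:83431170-83431198: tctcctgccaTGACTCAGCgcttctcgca
GOT2, antioxidant response element core, chr16:58734354-58734382: gggatcgctgTGACGTGGCtcgggcccag
SLC1A5, antioxidant response element core on the opposite strand, chr19:46787386-46787414: cctggatcttGCGAGGTCAgctcccgctc
A further antioxidant response element match in the ME1 window, 11 to 19 bases after the start, is not shown. All 4 genes lie on the minus strand. By GENCODE release 29 the ME1 stretch lies outside the gene and the others overlap an exon of their gene, which for GOT1 and GOT2 belongs to transcripts that start further upstream than the spans given above, and both SLC1A5 starts lie within the gene. The mRNA of ATF4 was at 267, 230 and 243 FPKM after MA and at 234, 257 and 216 FPKM without it (log2 fold change 0.10, adjusted p = 0.703 from edgeR). NFE2L2 was lower, with a log2 fold change of −0.35 (unadjusted p = 0.0342, adjusted p = 0.433 from edgeR). A match is a description of the letters, and binding was not measured.

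For each of the 8 genes, the gene with the most similar profile over the 6 samples was found among the 11470 genes whose FPKM averaged 1 or more, by the root mean square difference of mean-centred log2(FPKM + 0.1) values. For GPT2 this was RRM2, a subunit of ribonucleotide reductase, at 52.4, 50.7 and 27.7 FPKM after MA and 28.1, 27.4 and 27.3 FPKM without it, with a root mean square difference of 0.167 where that of GPT2 from its own mean was 0.536. For SLC1A5 it was SHROOM1 (0.0902 against 0.441), for GOT1 MOCOS (0.0271 against 0.203) and for GOT2 CERK (0.0207 against 0.154). For GLUD1 it was APPL2 (0.0141 against 0.0840), for MDH1 NDEL1 (0.0329 against 0.167), for MDH2 DHRS11 (0.0178 against 0.125) and for ME1 PDE6D (0.0482 against 0.165). With 6 samples and this many genes some profiles are close in any case. The profile of GLUL is not described in this way because its level lies under the added 0.1.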

How the data were processed

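The 9 genes were matched by symbol. The members, the 10 pathway lists and the motifs were chosen with earlier results of these data known. The authors deposited, per gene and sample, FPKM and whole-number estimated counts, and 0.0001 FPKM stands for no reads. The counts exceed the reads the study lists, so halving them was an alternative. The submitters' processing notes name cutadapt 1.9, HISAT2 2.0.4, StringTie 1.3.4d, edgeR and DESeq2. The strand setting of the counting is not given in the sources used here. Libraries were made from poly(A) RNA with a kit that marks strand.

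The counts were tested as deposited with edgeR 4.0.16 (TMM, quasi-likelihood test, group only, Benjamini-Hochberg) for genes averaging 0.1 FPKM or more. 30337 genes had no count in any sample. DESeq2 1.42.0, limma 3.58.1 on log2(FPKM + 0.1) or log2(FPKM + 1), other scalings and filters, a replicate block and leaving out each sample were alternatives. The fit was tested on simulated data. Named were all members, the 2 genes with the smallest p per list, any list gene with an adjusted p under 0.05, 13 further fixed genes, and the gene with the nearest profile to each member. The edgeR, DESeq2 and limma p-values set the difference between the groups against the variation between samples of the same cell line. Some of these genes are not reported here.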

Additional observations from a re-analysis of the deposited data

How the results depend on the processing

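Of the 80 repeats of the 8 fold changes on all 6 samples, 77 kept direction and side of the unadjusted threshold, and GPT2, GOT1 and GOT2 were past it in 10 of 10. MDH1 turned to −0.0069 and −0.0066 in limma with pseudocounts of 0.1 and 1. Of the 48 fits that left out 1 sample, 41 kept both. There GOT1 ranged from 0.27 to 0.48 (past the threshold in 2 of 6), MDH1 from −0.059 to 0.14 and SLC1A5 from 0.21 to 0.83.

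The labels do not say whether the replicate numbers pair the samples. Same-numbered samples deviated together with a small r of 0.029 to 0.072, and the other pairs had r of −0.048 to −0.0013. Each sample correlated best with its own number. With the replicate block, SLC1A5 was at 0.50 and past the unadjusted threshold, 0 members were DEGs, and the number of all genes with an adjusted p under 0.05 went from 7 to 0.

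The number of members with an adjusted p under 0.05 was 1 under DESeq2 and 0 to 1 with 1 sample left out. Members that were DEGs numbered 0 in limma with either pseudocount and 0 to 1 with 1 sample left out. In the pathway lists, 12 to 29 genes had an unadjusted p under 0.05 and 0 to 1 were DEGs with 1 sample left out, and DESeq2 gave 4 with an adjusted p under 0.05. Over all genes the adjusted count was 259 in DESeq2, 12 with a filter at 1 FPKM and 3 to 24 with 1 sample left out. DEGs numbered 44 in limma with a pseudocount of 1, 93 with a filter at 1 FPKM, 569 with no filter and 326 to 534 with 1 sample left out, and genes with an unadjusted p under 0.05 then numbered 1178 to 3213. The difference in mean log2 ratio ranged, with 1 sample left out, from −0.042 to 0.16 for GOT1/GOT2, −0.33 to 0.089 for MDH1/MDH2, 0.25 to 0.38 for ME1/ME2 and −0.57 to 0.36 for GLUL/GLUD1. The causes were not tested. Summing overlapping genes on the same strand was not run because no member has one. Outliers were not assessed in groups of 3.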
